A study of Mus musculus with 6 samples.

Results

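The genes that handle phosphate and pyrophosphate during mineralization were examined in osteoblasts (OBs) of BMP-2-induced ectopic bone. They were taken by name, as the rows of the 6 expression files with the symbols *Alpl*, *Enpp1*, *Ank*, *Phospho1*, *Smpd3*, *Slc20a1* and *Slc20a2*, and all 7 were found among the 23284 genes listed. Collagen sponges with 2.5 μg of BMP-2 were implanted under the back skin of male *Col2.3*-ECFP mice, 12 to 16 weeks old. In these mice a fragment of the type I collagen promoter drives a cyan fluorescent protein (ECFP), and ECFP+ cells were taken as OBs. ECFP+ cells without CD45 and without the dead-cell stain were sorted on day 10 (n = 3) and day 14 (n = 3), and the design asks how their expression differed between these days. No mice without BMP-2 were sequenced among these samples. The samples are labelled biological replicates, and the labels do not say how many mice each one holds. Day 10 tissue went through 1 collagenase digestion and day 14 tissue through 2, and this difference cannot be told apart from that of the days. The titles place the later samples on day 14, while their descriptions give day 14, 15 and 16 for replicates 1, 2 and 3.

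Mineral forms when calcium meets inorganic phosphate (Pi) in the matrix, and inorganic pyrophosphate (PPi) blocks the growth of the crystals. *Enpp1* encodes the enzyme that makes PPi from extracellular nucleotides, and *Ank* encodes a membrane protein needed for the release of ATP and PPi from the cell. *Alpl* encodes tissue-nonspecific alkaline phosphatase, the OB enzyme that splits PPi into Pi. Inside matrix vesicles, the small particles in which the first crystals form, the phosphatase encoded by *Phospho1* releases Pi from phosphocholine, and the neutral sphingomyelinase encoded by *Smpd3* releases phosphocholine from sphingomyelin. *Slc20a1* and *Slc20a2* encode the sodium-dependent transporters PiT-1 and PiT-2, which carry Pi into cells.

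Expression is given as FPKM, the number of fragments of a gene scaled by its exon length and by the depth of the sample, so that levels can be compared between genes. Each sample held about 4530000 to 7755000 mapped reads, as estimated from the steps between low FPKM values. The OB markers of the study, *Dlx5*, *Runx2*, *Sp7*, *Alpl*, *Col1a1*, *Ibsp* and *Bglap2*, were above 0 in all samples. Replicate 2 of day 14 stood apart from the other day 14 samples. Its 12 chondrocyte markers summed to 1109 FPKM, against 117 and 74.1 FPKM in replicates 1 and 3 and 432 to 865 FPKM on day 10. Of its sum, *Col2a1* held 688 FPKM. *Col2a1*, *Acan*, *Col10a1*, *Matn3*, *Hapln1* and *Sox9* were above their day 10 ranges in replicate 2. *Col9a1*, *Col9a2*, *Col9a3*, *Col11a2*, *Ihh* and *Matn1* were within theirs. The 9 myeloid markers of replicate 2 summed to 20.2 FPKM, against 262 and 615 FPKM in replicates 1 and 3 and 36.1 to 161 FPKM on day 10. Of these sums, *Lyz2* held 6.35 FPKM in replicate 2 and 160 and 454 FPKM in replicates 1 and 3. In replicate 2, *Cd14* was within its day 10 range and the other myeloid markers were below theirs. Results that rest on this sample are therefore given with and without it. In such bulk samples, fewer cells of a type and less RNA per cell cannot be told apart.

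The order of the levels was wide. On day 10, *Alpl* had the highest mean level (998 ± 168 FPKM, SD, n = 3) and ranked 33 among all genes listed. *Smpd3* followed with 137 ± 78.8 FPKM (SD, n = 3) and rank 408. *Ank* and *Enpp1* came next at 25.3 ± 8.35 and 20.9 ± 5.57 FPKM (SD, n = 3), and their samples overlapped. *Slc20a1*, *Slc20a2* and *Phospho1* were the lowest on day 10, at 9.80 ± 2.34, 9.73 ± 2.74 and 8.92 ± 5.92 FPKM (SD, n = 3), and neighbours among these genes also overlapped. On day 14, *Alpl* still had the highest mean, at rank 87, and *Phospho1* the lowest, at rank 9519. The means of *Enpp1*, *Ank* and *Smpd3* lay between 28.0 and 31.3 FPKM on that day, and neighbours in the order from *Enpp1* down to *Slc20a2* overlapped in their samples.

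**Figure D1:**
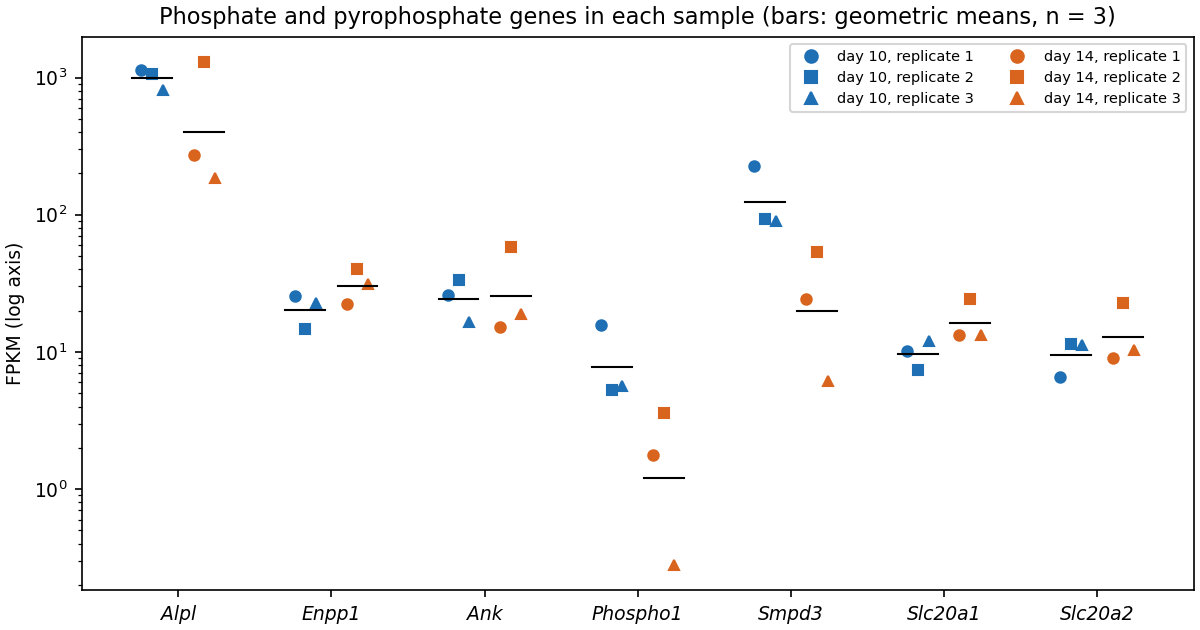
FPKM (log axis) of the 7 genes in the 3 samples of day 10 (blue) and the 3 samples of day 14 (orange), with 1 symbol shape per replicate number and bars at the geometric means. *Phospho1* and *Smpd3* lie lower in every day 14 sample than in any day 10 sample, and replicate 2 of day 14 (orange square) is the highest of the 6 samples for *Alpl*, *Enpp1*, *Ank*, *Slc20a1* and *Slc20a2*.

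The RNA of the enzyme that removes PPi was lower on day 14 in replicates 1 and 3 and not in replicate 2. *Alpl* (chromosome 4, 137741733 to 137796384, minus strand, mm10) had 1129, 1055 and 809 FPKM in day 10 replicates 1, 2 and 3. On day 14 it had 273 FPKM in replicate 1, 1299.8 FPKM in replicate 2 and 186 FPKM in replicate 3. The days therefore overlapped, and replicate 2 of day 14 was the highest of all samples while the other day 14 samples were the lowest. The difference in log2(FPKM + 0.1) was −1.29 (95% interval −2.73 to 0.15), with an adjusted p of 0.549 from limma over all genes tested. Without replicate 2 of day 14, the difference was −2.13, and limma gave it a standard error of 0.26 and an adjusted p of 0.0326. Without replicate 3 of day 14 it was −0.73, with an adjusted p of 0.891 from limma. In replicate 2 of day 14, *Col2a1*, a collagen of cartilage, had 688 FPKM and *Col10a1*, the collagen of hypertrophic chondrocytes, had 67.4 FPKM. *Col2a1* had 12.1 and 8.75 FPKM in replicates 1 and 3 of day 14 and 189 to 373 FPKM on day 10, and *Col10a1* had 2.99 and 0.194 FPKM in those day 14 replicates and 13.8 to 26.1 FPKM on day 10. Hypertrophic chondrocytes are themselves known for high alkaline phosphatase. The order of the 6 samples by *Alpl* was the same as their order by *Col2a1*, a match chosen after the values were seen, and the part of cartilage RNA in the *Alpl* values was not tested.

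The genes that supply PPi were at lower levels than *Alpl*, and neither passed the test. *Enpp1* (chromosome 10, 24637914 to 24712159, minus strand) had 25.4, 14.7 and 22.6 FPKM on day 10 and 22.5, 39.9 and 31.5 FPKM on day 14. Replicates 2 and 3 of day 14 were above all day 10 samples, and replicate 1 was within their range. Its log2 difference was 0.58 (95% interval −0.04 to 1.19, adjusted p = 0.528 from limma), and 0.38 without replicate 2 of day 14 (adjusted p = 0.647 from limma). *Ank* (chromosome 15, 27466677 to 27594909, plus strand) had 26.0, 33.2 and 16.5 FPKM on day 10 and 15.2, 57.9 and 18.8 FPKM on day 14. The day 14 samples lay on both sides of the day 10 range, with replicate 1 below it and replicate 2 above it. The log2 difference of *Ank* was 0.07 (95% interval −1.02 to 1.16, adjusted p = 0.984 from limma). Its sign turned to −0.52 without replicate 2 of day 14, to −0.20 without replicate 3 of day 10 and to −0.06 with upper-quartile scaling of the samples, so no direction was given for this gene.

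A ratio of the FPKM of 1 gene to that of another within a sample does not depend on the scaling between samples. The ratio of *Alpl* to *Enpp1* was 44.4, 71.8 and 35.8 on day 10 and 12.1, 32.6 and 5.90 on day 14. Every day 14 sample, replicate 2 included, was below every day 10 sample, although the highest day 14 ratio was close to the lowest of day 10. On the log2 scale it averaged 5.59 ± 0.513 (SD, n = 3) early and 3.72 ± 1.24 (SD, n = 3) late, which is 3.65-fold lower. A two-sided exact permutation test gave this difference p = 0.1, or 0.15 after adjustment over 3 ratios.

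The ratio of *Alpl* to *Ank* was 43.4, 31.8 and 48.9 on day 10 and 17.9, 22.5 and 9.90 on day 14. Again no day 14 sample reached the day 10 range. This ratio was 2.57-fold lower on day 14, with the same p of 0.1 from the exact test and 0.15 after adjustment. The smallest p that 3 samples against 3 allow is 0.1, so neither ratio could pass a threshold of 0.05. When any 1 of the 6 samples was left out, the log2 difference stayed between −2.52 and −1.28 for *Alpl* to *Enpp1* and between −1.61 and −1.02 for *Alpl* to *Ank*.

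**Figure D2:**
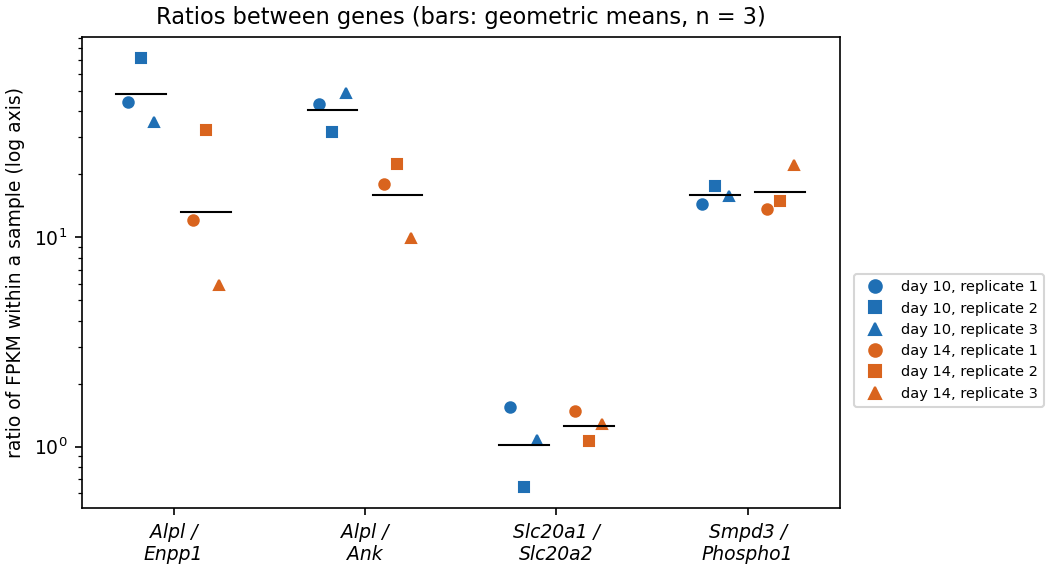
Ratio of FPKM between 2 genes within each sample (log axis) for day 10 (blue) and day 14 (orange), with bars at the geometric means. Both ratios of *Alpl* are lower in all 3 day 14 samples than in any day 10 sample, the ratio of *Slc20a1* to *Slc20a2* overlaps between the days, and that of *Smpd3* to *Phospho1* stays between 13.7 and 22.1.

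With all 6 samples, the genes of the matrix vesicle enzymes showed the largest differences among the 7, both with lower RNA levels on day 14. *Smpd3* (chromosome 8, 106252548 to 106337988, minus strand) had 228, 93.3 and 90.0 FPKM on day 10 and 24.1, 53.7 and 6.18 FPKM on day 14. No day 14 sample reached the lowest day 10 sample, and replicate 2 was the highest of its day. The day 14 mean was 28.0 ± 24.0 FPKM (SD, n = 3), and the log2 difference was −2.62 (95% interval −4.24 to −1.01). Its unadjusted p was 0.00546 and its adjusted p 0.319 from limma, and without replicate 2 of day 14 the log2 difference was −3.33, with an adjusted p of 0.0639 from limma. Without replicate 3 of day 14 it was −1.78 (adjusted p = 0.616 from limma). Markers of the cells are given alongside. The 7 OB markers summed to 28370 to 54190 FPKM on day 10 and to 19620, 38270 and 15670 FPKM on day 14. Most of each sum was *Col1a1* and *Ibsp*. All 7 had log2 differences below 0, and none had an adjusted p under 0.05 from limma. *Sp7*, which encodes the OB transcription factor osterix, was the 1 marker of the 7 without overlap of the days. Its log2 difference was −2.34 (adjusted p = 0.309 from limma), and −3.05 without replicate 2 of day 14 (adjusted p = 0.0329 from limma). The part of these marker differences in the *Smpd3* values was not tested.

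*Phospho1* (chromosome 11, 95824499 to 95832140, plus strand) had 15.7, 5.31 and 5.69 FPKM on day 10. On day 14 it had 1.76, 3.62 and 0.280 FPKM. The samples of the days did not overlap, and the highest and the lowest of the 6 samples differed 56.2-fold. The log2 difference was −2.52 (95% interval −4.33 to −0.71), with an unadjusted p of 0.0121 and an adjusted p of 0.362 from limma. Without replicate 2 of day 14 it was −3.23 (adjusted p = 0.114 from limma), and without replicate 3 of day 14 it was −1.59 (adjusted p = 0.642 from limma). The value in replicate 3 of day 14 rested on about 3.33 estimated reads and is imprecise.

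The annotation limits the value of *Phospho1*. Of its 2029 exon bases, 1818 are also exonic in transcripts of *Zfp652* on the same strand and 1708 in transcripts of *Abi3* on the opposite strand. *Zfp652* had 2.05 to 3.70 FPKM and *Abi3* 0.217 to 0.860 FPKM over the 6 samples, and how reads were shared between these genes is not given in the sources used here. The exons of *Smpd3* share 247 of 5232 bases with *Prmt7*, which had 5.42 to 7.59 FPKM.

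The measured levels of *Smpd3* and *Phospho1* kept a similar ratio from sample to sample. Their ratio was 14.5, 17.6 and 15.8 on day 10 and 13.7, 14.9 and 22.1 on day 14. It thus varied 1.62-fold over the 6 samples, while *Smpd3* varied 36.9-fold and *Phospho1* 56.2-fold. This ratio was chosen after its values were seen and was not tested. Its highest value, 22.1 in replicate 3 of day 14, rests on the *Phospho1* value with about 3.33 estimated reads. The exon bases that *Phospho1* shares with *Zfp652* and *Abi3* limit every one of these ratios.

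**Figure D3:**
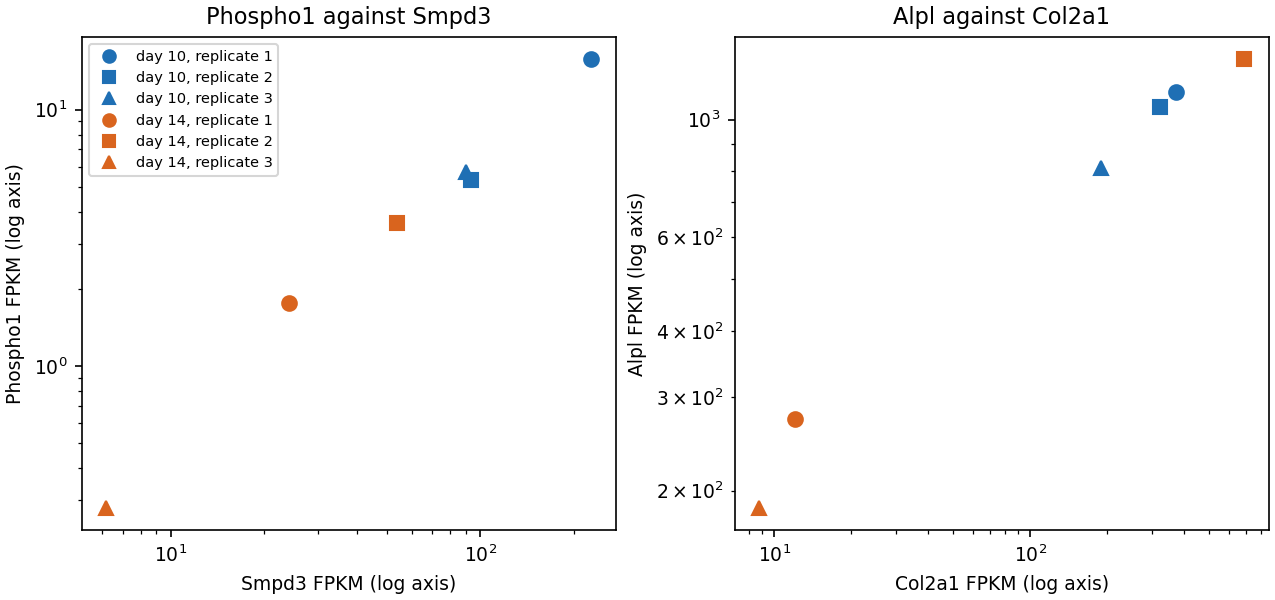
FPKM of *Phospho1* against *Smpd3* (left) and of *Alpl* against *Col2a1* (right) in the 6 samples, all axes on a log scale. In the left panel all day 14 samples (orange) lie below and to the left of the day 10 samples (blue), and in the right panel replicate 2 of day 14 lies at the top with 1299.8 FPKM of *Alpl* and 688 FPKM of *Col2a1*.

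Of the Pi importers, *Slc20a1* (chromosome 2, 129198764 to 129211616, plus strand) was the member with every day 14 sample above every day 10 sample. It had 10.1, 7.34 and 11.98 FPKM on day 10 and 13.2, 24.1 and 13.2 FPKM on day 14. The gap between the days was narrow, and with upper-quartile scaling of the samples it closed and the days overlapped. The log2 difference was 0.75 (95% interval 0.09 to 1.40), with an unadjusted p of 0.0294 and an adjusted p of 0.438 from limma, and without replicate 2 of day 14 it was 0.46 (adjusted p = 0.496 from limma).

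*Slc20a2* (chromosome 8, 22476788 to 22569612, plus strand) had 6.56, 11.4 and 11.2 FPKM on day 10 and 8.997, 22.8 and 10.3 FPKM on day 14. Replicate 2 of day 14 was 1.99 times the next highest sample, and the others were within the day 10 range. The log2 difference was 0.44 (95% interval −0.40 to 1.29, adjusted p = 0.769 from limma). Without replicate 2 of day 14 it was 0.03 (adjusted p = 0.988 from limma). The ratio of *Slc20a1* to *Slc20a2* was 1.54, 0.642 and 1.07 on day 10 and 1.47, 1.06 and 1.28 on day 14. The RNA of both transporters was thus at similar levels per length. The log2 ratio differed by 0.31 between the days (exact permutation test, p = 0.7, also 0.7 after adjustment), and by −0.02 without replicate 2 of day 10.

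The bases before the start sites of *Phospho1* and *Slc20a1* are shown because these genes separated the days in opposite directions. The RefSeq promoter table (GRCm38.p6) held entries for 5 of the 7 genes, namely *Alpl*, *Ank*, *Enpp1*, *Phospho1* and *Slc20a1*. The 250 bases before each start were searched on both strands for 3 short motifs. The core bound by RUNX factors was searched as TGTGGT. The GC box of SP factors was searched as GGGCGG. The TATA box was searched as TATAAA. Capitals mark these motifs or their reverse complements.
Phospho1, chr11:95824250-95824499, plus strand: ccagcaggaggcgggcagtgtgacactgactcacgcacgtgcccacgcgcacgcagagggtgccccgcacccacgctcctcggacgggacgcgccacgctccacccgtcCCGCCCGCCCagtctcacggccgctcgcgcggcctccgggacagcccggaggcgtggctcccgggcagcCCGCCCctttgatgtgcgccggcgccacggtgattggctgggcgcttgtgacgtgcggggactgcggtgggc
Slc20a1, chr2:129198523-129198772, plus strand: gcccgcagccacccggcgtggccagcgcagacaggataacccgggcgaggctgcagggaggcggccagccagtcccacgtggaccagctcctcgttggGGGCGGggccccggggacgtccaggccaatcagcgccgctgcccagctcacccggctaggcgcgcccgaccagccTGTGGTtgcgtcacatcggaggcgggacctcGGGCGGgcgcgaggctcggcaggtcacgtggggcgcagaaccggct
The window of *Phospho1* held 3 matches to GGGCGG, of which a pair overlaps, and no match to the other motifs. That of *Slc20a1* held 2 matches to GGGCGG and 1 to TGTGGT, and a second start of *Slc20a1* held 1 to GGGCGG. *Enpp1* held 1 RUNX core and 1 GC box. *Ank* and the upstream start of *Alpl* each held 2 matches to GGGCGG, and the downstream start of *Alpl* held 1 to TATAAA. Of all 32851 windows of this length in the table, 32.7% held the GC box, 14.0% the RUNX core and 12.4% the TATA box. These matches describe the letters only.

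Counted over the 7 genes, none had an adjusted p under 0.05 from limma, where 0.0154% of all 19526 genes tested had one. An unadjusted p under 0.05 was reached by 3 of the 7 genes (*Smpd3*, *Phospho1* and *Slc20a1*), against 10.0% of all genes. A fold change over 2 was reached by 3 genes (*Alpl*, *Smpd3* and *Phospho1*), all with lower means on day 14, against 13.6% of all genes in either direction. Without replicate 3 of day 14, 2 genes were over 2-fold, and *Alpl* was not. The days did not overlap, with lower values on day 14, in 2 genes, where 6.67% of all genes showed this, and with higher values in 1 gene, where 7.59% did. Without replicate 2 of day 14, *Alpl* was the 1 gene of the 7 with an adjusted p under 0.05 from limma, when 76 of all genes tested had one. Two-sided exact Mann-Whitney tests gave p = 0.1, the smallest p possible, for *Smpd3*, *Phospho1* and *Slc20a1*, and p = 0.4 to 1.0 for the other genes.

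**Figure D4:**
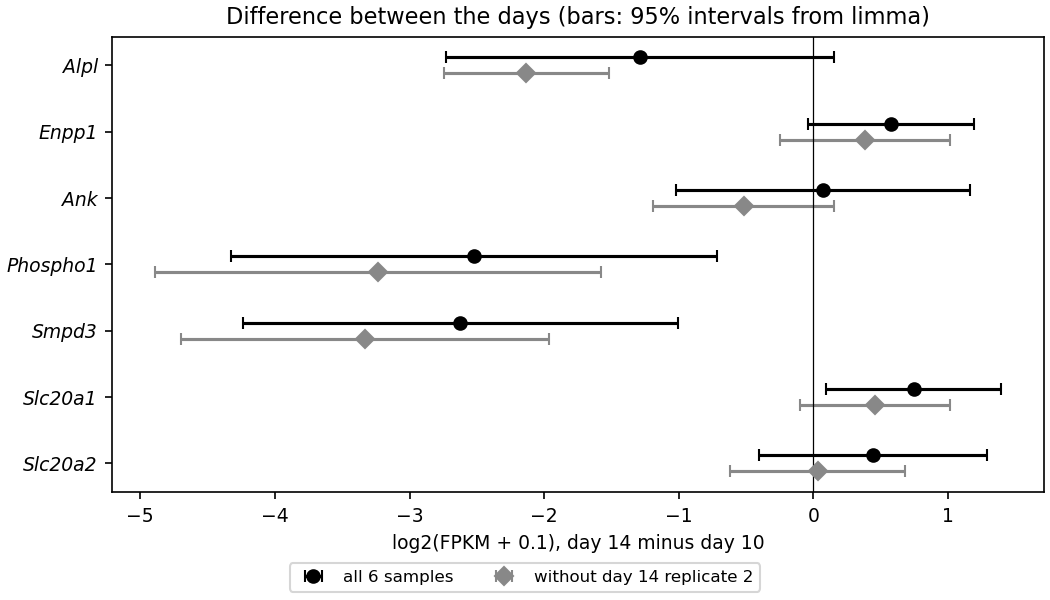
Difference in log2(FPKM + 0.1) between day 14 and day 10 for the 7 genes, with 95% intervals from limma, for all 6 samples (black circles) and without replicate 2 of day 14 (grey diamonds). The intervals of *Phospho1* and *Smpd3* lie below 0 with and without that sample, and that of *Alpl* does so only without it. That of *Slc20a1* lies above 0 with all 6 samples and includes 0 without replicate 2 of day 14. The intervals are not adjusted for the number of genes tested.

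Among 58 further genes of the same processes, 52 passed the filter of a mean above 0.1 FPKM. None of the 52 had an adjusted p under 0.05 from limma. Of them, 7 were lower and 10 higher on day 14 at an unadjusted p under 0.05, which 10.0% of all genes tested reached in either direction. Over 2-fold lower were 8 genes and over 2-fold higher 2 genes, against 13.6% of all genes in either direction. The days did not overlap in 1 lower gene, against 6.67% of all genes, and in 7 higher genes, against 7.59%. The share of 10.0% is also the background of the counts at an unadjusted p in each list. Their median log2 difference was −0.03, against −0.04 for all genes tested. The lists are described in turn.

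Among the genes of extracellular nucleotide and PPi metabolism, 12 of 14 were tested, and 2 were lower and 4 higher at an unadjusted p under 0.05. *Panx3*, a pannexin channel of OBs and chondrocytes that releases ATP, had the highest mean of this list. It had 208, 105 and 103 FPKM on day 10 and 25.2, 118 and 10.5 FPKM on day 14, so that replicate 2 of day 14 was within the day 10 range. Its log2 difference was −2.05 (adjusted p = 0.423 from limma), and −3.003 without replicate 2 of day 14 (adjusted p = 0.0402 from limma). *Enpp2*, which encodes autotaxin, a relative of *Enpp1* that acts on lysophospholipids, had 28.7, 28.0 and 35.5 FPKM on day 10 and 154, 55.2 and 64.4 FPKM on day 14. All day 14 samples were higher (log2 difference 1.42, adjusted p = 0.305 from limma). *Nt5e*, which encodes the nucleotidase CD73, had 68.8, 99.8 and 31.6 FPKM on day 10 and 20.0, 132 and 15.9 FPKM on day 14, and *Entpd3*, a nucleoside triphosphate hydrolase gene, had 72.5, 56.2 and 25.4 FPKM and then 13.4, 30.3 and 2.09 FPKM. Their log2 differences were −0.79 for *Nt5e* (adjusted p = 0.801 from limma) and −2.29 for *Entpd3* (adjusted p = 0.430 from limma). Without replicate 2 of day 14, that of *Nt5e* was −1.75 (adjusted p = 0.137 from limma). *Entpd2* and *Panx1* went the other way, by 0.98 and 0.74 (adjusted p = 0.340 and 0.430 from limma), and *Entpd1* differed by −0.26. With all samples, the days overlapped in each of these genes. *Nt5e*, *Panx1* and the *Entpd* genes were named after their values were seen. The other alkaline phosphatase genes *Akp3* and *Alppl2* were listed at 0 in all samples, and *Alpi* did not exceed 0.821 FPKM.

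Among other genes of phosphate transport and control, 12 of 14 were tested, and 2 were lower and none higher at an unadjusted p under 0.05. *Dmp1*, a matrix protein gene of osteocytes, had the highest mean. Its values were 780, 949 and 168 FPKM on day 10 and 158, 423 and 36.1 FPKM on day 14 (log2 difference −1.89, adjusted p = 0.541 from limma). *Phex*, an endopeptidase gene whose loss raises FGF23 and wastes phosphate, had 20.6, 30.0 and 6.48 FPKM and then 3.75, 10.9 and 1.49 FPKM, and the days overlapped in both genes. *Phex* and the following genes of this list were named after their values were seen. The kidney and gut phosphate importers *Slc34a1*, *Slc34a2* and *Slc34a3* did not exceed 0.331 FPKM in any sample. The phosphate exporter *Xpr1* had 2.96 to 3.22 FPKM on day 10 and 1.81 to 3.61 FPKM on day 14.

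Among other genes of phosphocholine and sphingomyelin turnover, 10 of 11 were tested, and 2 were lower and 2 higher at an unadjusted p under 0.05. *Sgms2*, which encodes a sphingomyelin synthase that makes the substrate of sphingomyelinases, had 159, 77.8 and 54.1 FPKM on day 10 and 31.3, 51.3 and 18.9 FPKM on day 14. The days did not overlap, by a narrow margin (log2 difference −1.48, adjusted p = 0.347 from limma). *Asah1*, the gene of the lysosomal acid ceramidase, had 45.5, 54.1 and 53.9 FPKM and then 86.4, 85.5 and 94.7 FPKM. Every day 14 sample of *Asah1* was higher, replicate 2 included (log2 difference 0.80, adjusted p = 0.268 from limma). The acid and other neutral sphingomyelinase genes differed from *Smpd3* in size of difference, with log2 values of −0.29 for *Smpd1*, −0.15 for *Smpd2* and −0.17 for *Smpd4*, each within its 6 overlapping samples, and these were named after their values were seen.

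Among 12 annexins and other matrix vesicle proteins, all were tested, and 3 were higher and none lower at an unadjusted p under 0.05. *Anxa1*, a calcium-binding annexin gene, had the highest mean, with 828, 1022 and 1135 FPKM on day 10 and 1890.01, 1536 and 1767 FPKM on day 14 (log2 difference 0.81, adjusted p = 0.360 from limma). *Anxa2*, *Anxa5* and *Anxa6*, the annexins best known from matrix vesicles, overlapped between the days, with log2 differences of 0.11, 0.20 and −0.29, and were named after their values were seen. No gene of this list was over 2-fold. The intracellular pyrophosphatases *Ppa1*, *Ppa2* and *Lhpp* differed by −0.12, −0.11 and −0.09, with overlapping samples, and *Ppa1* had the highest mean of them, with 62.1 to 114 FPKM.

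Of the mineralization inhibitors outside the 7 genes, 3 of 4 were tested, and 1 was lower and 1 higher at an unadjusted p under 0.05. *Mgp*, the gene of matrix Gla protein, had 466, 441 and 422 FPKM on day 10 and 1083, 1270.5 and 1351 FPKM on day 14. The days were far apart compared with the spread within each of them, and replicate 2 of day 14 lay with its own day (log2 difference 1.47, standard error 0.20, adjusted p = 0.140 from limma). Without replicate 2 of day 14, the adjusted p of *Mgp* was 0.0509 from limma. *Spp1*, the gene of osteopontin, which binds crystals, had the highest mean of this list, with 8243, 9663 and 3583 FPKM on day 10 and 4397, 10176 and 2229.7 FPKM on day 14, and its days overlapped (log2 difference −0.51, adjusted p = 0.862 from limma). *Fetub*, the gene of fetuin-B and named after its values were seen, had 5.01, 5.16 and 1.77 FPKM on day 10 and 1.68, 1.81 and 0.125 FPKM on day 14. The days overlapped by a narrow margin, and the log2 difference was −2.01 (adjusted p = 0.469 from limma).

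**Figure D5:**
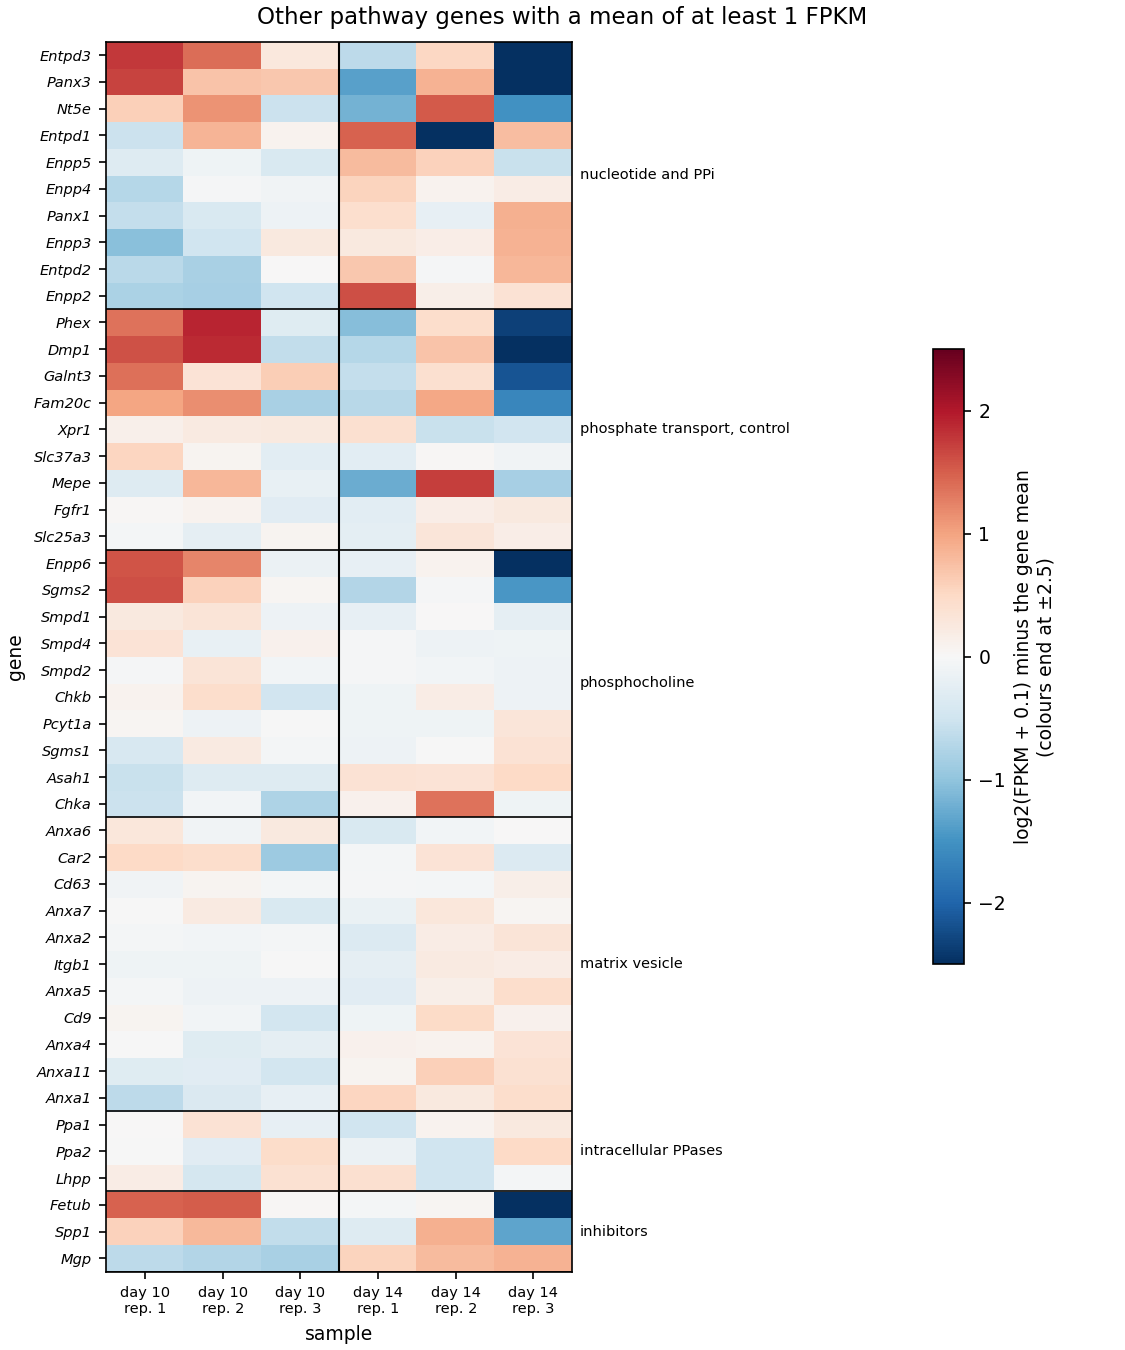
Log2(FPKM + 0.1) minus the mean of each gene over the 6 samples for 46 further pathway genes with a mean of at least 1 FPKM, grouped by list and ordered within it by the difference between the days, with 1 column per sample. *Mgp*, *Asah1*, *Anxa1* and *Enpp2* are higher in all 3 day 14 samples, while *Panx3* and *Nt5e* are low in replicates 1 and 3 of day 14 and not in replicate 2.

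To find genes with a like pattern, each of the 7 genes was compared with all genes of a mean of at least 10 FPKM by the root mean square difference of their log2(FPKM + 0.1) over the 6 samples, each gene centred on its own mean. For *Phospho1* the nearest of 4605 genes was *Smpd3* itself, at 0.136, with the limits given above for the *Phospho1* values. *Ifitm5*, which encodes a small membrane protein of OBs, came next at 0.257, and it was also the nearest gene to *Smpd3* at 0.197. *Ifitm5* had 975, 478 and 323 FPKM on day 10 and 122, 239 and 33.6 FPKM on day 14, so its samples also did not overlap. The third gene was *Chst13* for *Phospho1*, and *Slc13a5*, a citrate transporter gene, and *Slc8a3*, a sodium-calcium exchanger gene, followed for *Smpd3*. For *Alpl*, the nearest genes were *Trpv4*, a calcium channel gene, at 0.157, *Fgfr3* at 0.236 and *Ckb* at 0.303. *Trpv4* had 21.1, 14.9 and 11.6 FPKM on day 10 and 4.78, 18.9 and 2.72 FPKM on day 14, with the same high replicate 2. *Alpl* itself was at position 62 in the order from both *Phospho1* and *Smpd3*.

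The nearest genes to *Enpp1* were *1500015O10Rik* (0.106), *Capn6* and *Glipr1*, and *Slc20a1* was at position 14 of 4604 with 0.226. Those nearest to *Ank* were *Kcnn4* (0.229) and *Lum* (0.275). Those nearest to *Slc20a1* were *Tnfsf9* (0.157), *Hmgn3* and *Megf6*, and those nearest to *Slc20a2* were *Podnl1* (0.154), *Vcl* and *Hmox1*. The SD of the log2 profile over the 6 samples was 0.488 to 0.729 for these 4 genes, against 1.19 for *Alpl*, 1.83 for *Phospho1* and 1.81 for *Smpd3*.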

How the data were processed

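ECFP+ OBs of day 10 and day 14 were profiled by RNA-seq with 75-base single-end reads. The authors mapped the reads to mm10 with TopHat2 2.0.13, Bowtie2 2.2.3 and SAMtools 0.1.19, and Cufflinks 2.2.1 gave the deposited FPKM, 1 value for each gene of a sample. The gene annotation and the handling of reads shared by genes are not given in the sources used here. FPKM hold no counts, so depth was estimated from the steps of low values on 1977 genes with 1 transcript, for a fragment length of 230 bases. Estimated reads are approximate and cover counting error only.

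The 6 files list 23284 genes in the same order, and 25 symbols turned into dates in 1 file were restored by position. Groups follow the sample titles. The days were compared with limma 3.58.1 in R 4.3.3 (mean-variance trend, day as the only factor) on log2(FPKM + 0.1). Genes were tested where their mean exceeded 0.1 FPKM, which kept 19526 of them, with Benjamini-Hochberg adjustment over all of them. This scale understates changes of low genes. Ratios within samples were compared with exact permutation tests and single genes also with exact Mann-Whitney tests in SciPy 1.17.1. Positions are those of GENCODE vM21 (mm10). The p-values from limma weigh the difference between the days against the spread between samples, which limma adjusts using all genes. Those of the exact tests come from rearranging these samples between the days.

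The 7 genes and the lists were chosen with earlier results of these data known. Apart from the 7, the rule named list genes with an adjusted p under 0.05, or with a mean of at least 1 FPKM, over 2-fold and without overlap, the highest gene of each list, and the 3 nearest patterns per gene. A gene that the rule named is not reported here. Alternatives were other pseudocounts, filters and scalings, no trend, the replicate number as a block, and each sample left out.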

Additional observations from a re-analysis of the deposited data

How the results depend on the processing

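For the 7 genes, 14 alternatives were run beside the reported fit, and for *Enpp1*, *Phospho1*, *Slc20a1*, *Slc20a2* and *Smpd3* the direction and the side of an adjusted p of 0.05 from limma were kept in all of them. Leaving out any 1 sample gave log2 differences from −2.13 to −0.73 for *Alpl*, from 0.34 to 0.80 for *Enpp1*, from −0.52 to 0.44 for *Ank*, from −3.23 to −1.59 for *Phospho1*, from −3.33 to −1.78 for *Smpd3*, from 0.46 to 0.90 for *Slc20a1* and from 0.03 to 0.70 for *Slc20a2*. The lowest adjusted p from limma over these fits was 0.0326 for *Alpl* and 0.0639 for *Smpd3*. *Ank* reversed to −0.062 with upper-quartile scaling, which moved the median of all genes by −0.11. The ratio of *Slc20a1* to *Slc20a2* ranged from −0.024 to 0.60 on the log2 scale with 1 sample left out. The number of the 7 genes with an adjusted p under 0.05 ranged from 0 to 1, as did that of the further pathway genes. The 7 genes held 3 over 2-fold in the reported fit and 2 to 3 with 1 sample left out. The pathway genes over 2-fold numbered 10 in the reported fit and 8 to 17 with 1 sample left out. The genes with days apart numbered 2 to 3 (lower) and 1 to 2 (higher) with 1 sample left out, and 0 were apart and higher with upper-quartile scaling. The causes of these changes were not tested.

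Same-numbered samples of the days deviated together only weakly (r = 0.058, −0.00584 and 0.0887 across genes), so the numbers were not taken to pair the samples. With the replicate number as a block (replicate block), the log2 differences stay the same by construction and the adjusted p from limma ranged from 0.188 to 0.965 over the 7 genes, so that it changed no call.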
